A study of Mus musculus with 6 samples.

Results

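The 10 genes described here belong to the antioxidant programme of the transcription factor NRF2 and to the defence against ferroptosis: Nfe2l2, Keap1, Hmox1, Nqo1, Gclc, Gclm, Slc7a11, Txnrd1, Srxn1 and Gpx4. They were chosen by gene symbol, and each matched 1 row of the 54532 genes measured. Poly-A RNA was sequenced from MC38 cells, a mouse colon cancer line, grown as subcutaneous tumours. The groups were 3 libraries of MC38 tumours with Npm1 knocked out by CRISPR/Cas9 (Npm1 KO) and 3 of wild-type MC38 tumours (WT). The hosts of both groups were wild-type C57BL/6 mice, and CD45 microbeads were used in both to obtain cells without CD45, a leukocyte surface protein. The labels name no guide, no number of knockout clones and no animal for a library, so a p-value measures only the spread between these libraries, which may be technical.

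NRF2, encoded by Nfe2l2, is a basic leucine zipper factor held at a low protein level by KEAP1, an adaptor that brings it to the CUL3 ubiquitin ligase. When oxidants or electrophiles modify KEAP1, NRF2 accumulates, pairs with small MAF proteins and binds antioxidant response elements in front of genes for glutathione synthesis, thioredoxin reduction, quinone reduction and heme breakdown. Ferroptosis is a death by iron-dependent lipid peroxidation, which the selenoenzyme GPX4 counters with glutathione made from cystine that the SLC7A11 transporter brings in.

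Values are FPKM, fragments scaled to gene length and to a total for each library, so levels can be set side by side between genes. Each library held 16917778 to 18662688 fragments, as recovered from the FPKM. The total implied by the scaling was not exactly this number. It ran from 0.960 times the recovered fragments in WT replicate 3 to 1.04 times in WT replicate 1. The source of that difference was not tested. Npm1 was measured at 191, 159 and 128 FPKM in Npm1 KO and at 234, 169 and 195 FPKM in WT, so the groups overlapped as deposited (log2 -0.33, limma adjusted p = 0.268). With each library's trend in transcript length and GC content removed, Npm1 was lower in Npm1 KO (log2 -0.75, SE 0.135, limma adjusted p = 0.0443). Of 11 colon epithelial markers, 1 reached a mean of 1 FPKM, and their summed level was 1.62 to 2.55 FPKM in Npm1 KO and 2.26 to 2.89 FPKM in WT, so the defining transcripts of the labelled colon origin were near absent. In tumour tissue measured in bulk, fewer cells of a type and less RNA per cell cannot be told apart.

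Promoter windows from RefSeq on GRCm38.p6, running from 250 bases before to 50 after an annotated start, were matched for 8 of the 10 genes, in 13 windows. Those of Srxn1 and Nfe2l2 are printed for their antioxidant response element matches and that of Slc7a11 for its C/EBP-ATF matches, with the matches in capitals. The antioxidant response element core was searched as TGACNNNGC and its form with an AP-1 core as TGANTCAGC. The C/EBP-ATF response element was searched as TGATGNAA, and all patterns were searched on both strands of the 13 windows. The first and second patterns can overlap each other.
Srxn1 (chr2:152105274-152105573, plus strand): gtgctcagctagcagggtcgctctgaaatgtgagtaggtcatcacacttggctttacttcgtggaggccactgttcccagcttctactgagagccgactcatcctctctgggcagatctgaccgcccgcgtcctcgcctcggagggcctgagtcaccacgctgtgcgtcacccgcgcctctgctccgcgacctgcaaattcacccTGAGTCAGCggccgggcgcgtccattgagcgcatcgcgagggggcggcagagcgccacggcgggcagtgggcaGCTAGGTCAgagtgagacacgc
Nfe2l2 (chr2:75704614-75704913, minus strand): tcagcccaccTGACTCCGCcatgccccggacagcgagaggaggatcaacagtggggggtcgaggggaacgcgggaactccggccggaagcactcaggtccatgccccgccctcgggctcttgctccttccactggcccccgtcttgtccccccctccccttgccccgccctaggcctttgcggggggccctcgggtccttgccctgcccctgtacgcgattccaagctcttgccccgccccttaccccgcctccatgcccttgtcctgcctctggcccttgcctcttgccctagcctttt
Slc7a11 (chr3:50443564-50443863, minus strand): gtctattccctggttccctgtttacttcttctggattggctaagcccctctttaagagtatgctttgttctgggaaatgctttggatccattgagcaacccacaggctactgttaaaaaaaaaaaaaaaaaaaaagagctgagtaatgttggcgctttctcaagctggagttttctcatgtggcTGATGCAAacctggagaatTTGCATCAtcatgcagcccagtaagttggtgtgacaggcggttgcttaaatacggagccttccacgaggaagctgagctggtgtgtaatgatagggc

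In Srxn1, which encodes sulfiredoxin, TGAGTCAGC stood 45 to 37 bases before the start, and a TGACNNNGC match lay on the other strand 28 to 36 bases past it. In Nfe2l2 itself TGACTCCGC began 240 bases before the start. The Slc7a11 window held TGATGNAA matches on both strands, which began 66 and 47 bases before the start. Matches to TGACNNNGC were found in 4 of the 13 windows, those of Nfe2l2, Srxn1, Gclm and 1 of the Txnrd1 starts, and in 12.4% of all 32851 windows of that length. TGANTCAGC was in 1.19% and TGATGNAA in 3.97% of all windows. A match is a description of these letters and not a measured site.

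None of the 9 genes that passed the filter changed between Npm1 KO and WT. The filter was a mean of 1 FPKM over the 6 libraries, and the test was limma on log2(FPKM + 1) with Benjamini-Hochberg adjustment and a threshold of 0.05. Of all 11287 genes tested, 14.2% passed, 5.91% higher and 8.3% lower in Npm1 KO. At an unadjusted p under 0.05 the count was 1 of 9, Nfe2l2, against 3740 of the 11287 genes tested. The limma-voom fit on fragments recovered from the FPKM also called 0, where 14.1% of all genes passed. The median log2 difference of the 9 genes was -0.09, against 0.02 over all tested genes, with 3 genes above 0 and 6 below. The groups did not overlap for 1 of the 9 genes, Txnrd1, which was lower in Npm1 KO, against 35.6% of all genes tested in either direction and 19.6% lower. With the trend of transcript length and GC content removed from each library, 0 of the 9 passed. In that fit 2.71% of all genes passed, 1.14% higher and 1.57% lower. Its count at an unadjusted p under 0.05 was 2 of 9, Nfe2l2 and Gpx4, against 2939 of the 11269 genes tested. For 8 of the 9 genes the 95% interval of the difference lay within a 2-fold change on the log2(FPKM + 1) scale, Nfe2l2 being the exception, which does not show that the groups were alike.

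**Figure D1:**
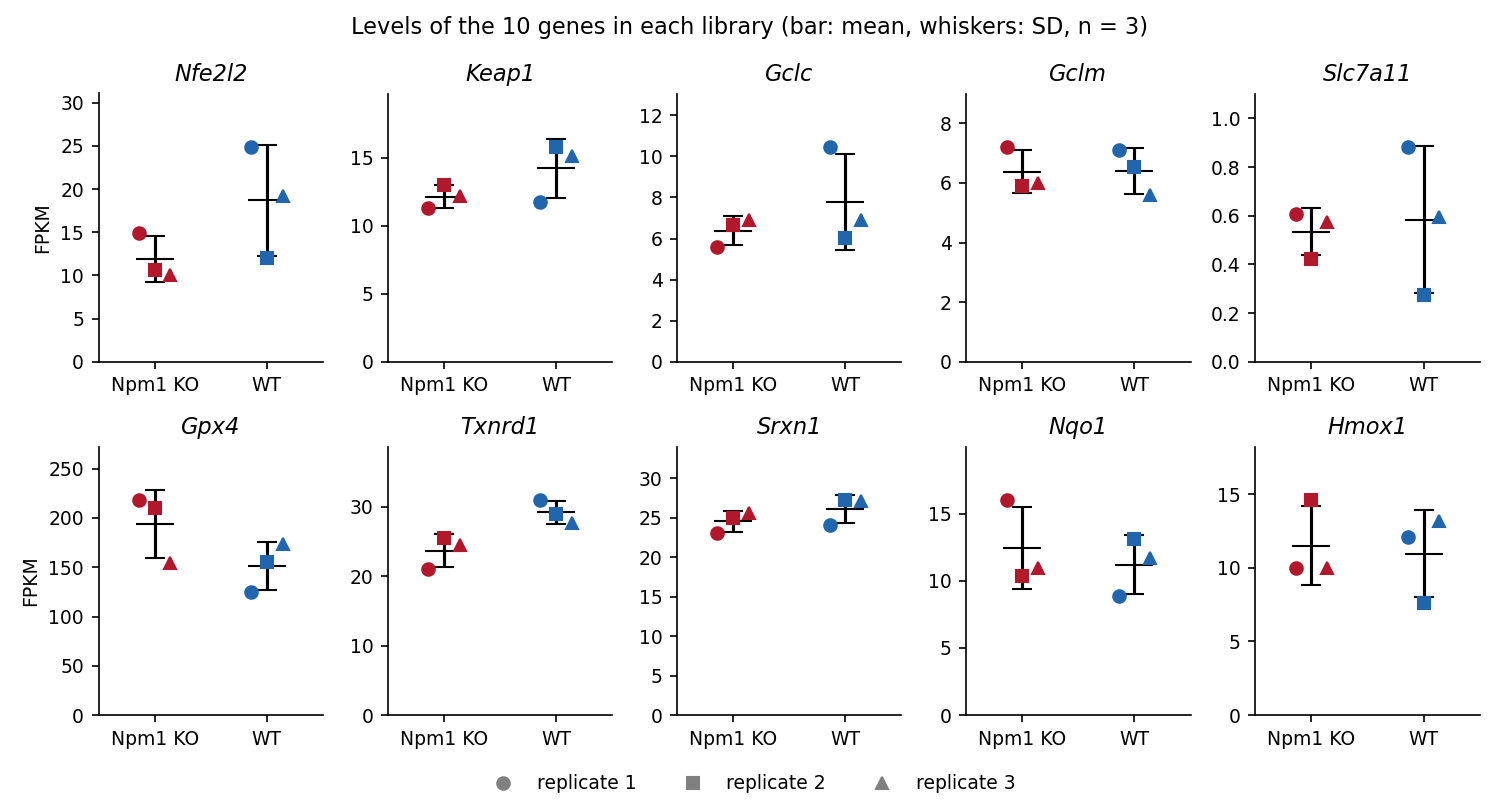
FPKM of each of the 10 genes in the 3 Npm1 KO libraries (red, left) and the 3 WT libraries (blue, right), on axes from 0. Symbols give the replicate number, the bar the mean and the whiskers the SD. Txnrd1 is the gene whose Npm1 KO libraries, at 21.0 to 25.6 FPKM, all lie below the WT libraries, at 27.7 to 30.9 FPKM.

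The order of the mean levels over the 6 libraries put Gpx4 far above the rest, at 173 ± 35.5 FPKM (SD, n = 6), rank 293 of all genes in the table. Txnrd1 (26.5 ± 3.53 FPKM) and Srxn1 (25.4 ± 1.66 FPKM) followed, and Txnrd1 was the higher in 4 of 6 libraries, so their FPKM order was within the spread. That order also depends on the gene length used, 7086 bases for Txnrd1 and 2820 for Srxn1, against 3622 and 2812 in the longest transcript. The next levels were those of Nfe2l2 (15.3 ± 5.75 FPKM), Keap1 (13.2 ± 1.86 FPKM), Nqo1 (11.8 ± 2.47 FPKM) and Hmox1 (11.2 ± 2.53 FPKM), and Nfe2l2 exceeded Keap1 in 3 of 6 libraries. Gclc (7.08 ± 1.73 FPKM) and Gclm (6.39 ± 0.662 FPKM) also overlapped, and Slc7a11 was lowest at 0.559 ± 0.203 FPKM. The steps from Gpx4 to Txnrd1, from Hmox1 to Gclc and from Gclm to Slc7a11 held in each of the 6 libraries.

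Nfe2l2 (ENSMUSG00000015839, GRCm38 chromosome 2, 75675513 to 75704641, minus strand) was the member with the largest difference. It was measured at 14.9, 10.6 and 10.1 FPKM in Npm1 KO and at 24.8, 12.1 and 19.2 FPKM in WT. WT replicates 1 and 3 stood above all Npm1 KO libraries, while WT replicate 2 lay within their range. The means were 11.9 ± 2.63 FPKM in Npm1 KO and 18.7 ± 6.41 FPKM in WT (SD, n = 3 each), which is -0.58 on the log2 scale (SE 0.244, 95% interval from -1.12 to -0.03). The limma adjusted p was 0.132, from an unadjusted limma p of 0.0401, so the difference did not pass. The exact two-sided permutation test gave p = 0.2, where the smallest p that 3 libraries against 3 allow is 0.1.

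The size of the Nfe2l2 difference rested on single WT libraries. Without WT replicate 1 it was -0.35 (limma adjusted p = 0.322) and without WT replicate 2 it was -0.84 (limma adjusted p = 0.0392), which passes in a fit where 7.89% of all genes did. Array weights, which let limma count noisy libraries less, gave -0.62 (limma adjusted p = 0.0125), in a fit where 48.3% of all genes passed. Over the 25 processing settings tried, the difference was negative in all, from -1.08 to -0.35, and passed in 3. After removal of the length and GC trend it came to -0.80 (SE 0.244, limma adjusted p = 0.098). Libraries differed in that trend, since deviations from a gene's mean followed transcript length with a Spearman's rho across genes of -0.58, -0.547 and 0.282 in Npm1 KO and 0.565, 0.235 and 0.137 in WT. With GC content rho was -0.194, -0.131 and -0.508 in Npm1 KO and -0.151, 0.414 and 0.55 in WT, so it was negative in all Npm1 KO libraries and in WT replicate 1. The part of that trend in the WT replicate 1 value was not tested beyond this correction.

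Keap1 (ENSMUSG00000003308, chromosome 9, 21229730 to 21239361, minus strand), the sensor that holds NRF2 down, was measured at 11.3, 12.98 and 12.2 FPKM in Npm1 KO and at 11.8, 15.8 and 15.1 FPKM in WT. WT replicates 2 and 3 were the highest, and WT replicate 1 fell among the knockout libraries. The log2 difference was -0.20 (SE 0.153, limma adjusted p = 0.378). Its sign turned to 0.18 (limma adjusted p = 0.289) with the length and GC trend removed, and it was above 0 in 8 of the 25 settings, so no direction can be given. Keap1 overlaps the antisense gene Gm16754, measured at a mean of 0.453 FPKM, and the strand setting of the counting is not given in the sources used here.

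The ratio of Nfe2l2 to Keap1 within a library, which does not depend on library scaling, was 1.32, 0.818 and 0.826 in Npm1 KO and 2.11, 0.763 and 1.27 in WT. It still depends on the length and GC trend, as GC content was 46.8% for Nfe2l2 and 58.0% for Keap1. With that trend removed the log2 differences were -0.80 for Nfe2l2 and 0.18 for Keap1, and the ratio was not tested on corrected values. The lowest and the highest ratio were both WT, so the groups overlapped (exact two-sided permutation p = 0.7, also 0.7 after adjustment over 3 ratios). On a log2 scale the mean ratio was -0.05 ± 0.395 in Npm1 KO and 0.34 ± 0.734 in WT (SD, n = 3 each).

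The next genes make and supply glutathione. Gclc (ENSMUSG00000032350, chromosome 9, 77754535 to 77794485, plus strand), the catalytic subunit of glutamate-cysteine ligase, was at 5.58, 6.69 and 6.89 FPKM in Npm1 KO and at 10.4, 6.01 and 6.90 FPKM in WT. WT replicate 1 stood alone above the other 5 libraries, which mixed. The log2 difference was -0.22 (SE 0.194, 95% interval -0.65 to 0.21, limma adjusted p = 0.445), and -0.01 without WT replicate 1. Gclm (ENSMUSG00000028124, chromosome 3, 122245557 to 122270732, plus strand), the modifier subunit of the same enzyme, was at 7.20, 5.91 and 6.01 FPKM in Npm1 KO and at 7.10, 6.53 and 5.59 FPKM in WT. Its means, 6.37 ± 0.716 FPKM in Npm1 KO and 6.40 ± 0.764 FPKM in WT (SD, n = 3 each), were closest of all, with a 95% interval of -0.34 to 0.33 on the log2 scale (limma adjusted p = 0.985). The ratio of Gclc to Gclm was 0.776, 1.13 and 1.15 in Npm1 KO and 1.47, 0.920 and 1.23 in WT, again overlapping (exact two-sided permutation p = 0.4, 0.6 after adjustment over 3 ratios).

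Slc7a11 (ENSMUSG00000027737, chromosome 3, 49892526 to 50443614, minus strand), the cystine carrier of the xCT transporter, lay below the filter. It was at 0.606, 0.424 and 0.574 FPKM in Npm1 KO and at 0.882, 0.275 and 0.597 FPKM in WT, from 154, 104 and 150 fragments in Npm1 KO and 233, 66 and 135 in WT. Both the highest and the lowest library were WT: the exact 95% Poisson interval was 0.772 to 1.002 FPKM in WT replicate 1 and 0.213 to 0.350 FPKM in WT replicate 2, covering counting error only. The difference of the mean log2 FPKM, with no pseudocount, was 0.01 (exact two-sided permutation p = 0.9). With no filter limma gave -0.03 (SE 0.155, adjusted p = 0.932) on the log2(FPKM + 1) scale. Slc3a2, the partner chain of xCT, was far more abundant, at 83.4 ± 9.20 FPKM in Npm1 KO and 89.8 ± 5.06 FPKM in WT (SD, n = 3 each), and did not pass (limma adjusted p = 0.637).

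Gpx4 (ENSMUSG00000075706, chromosome 10, 80047166 to 80056439, plus strand), the peroxidase that reduces lipid hydroperoxides in membranes, was at 218, 209.7 and 154 FPKM in Npm1 KO and at 125, 155 and 173 FPKM in WT. Npm1 KO replicates 1 and 2 stood above every WT library, and Npm1 KO replicate 3 lay within the WT range. The means were 194 ± 34.6 FPKM in Npm1 KO and 151 ± 24.3 FPKM in WT (SD, n = 3 each), so the log2 difference of 0.35 (SE 0.195, limma adjusted p = 0.233) did not pass, with a 95% interval of -0.08 to 0.79. It was above 0 in all 25 settings, from 0.14 after quantile normalization to 0.51 without Npm1 KO replicate 3, and passed in 1, array weights (0.35, limma adjusted p = 0.0352), where 48.3% of all genes passed. The quantile-normalized value (limma adjusted p = 0.445) was the lowest of the 25. After removal of the length and GC trend it came to 0.22 (SE 0.0904, limma adjusted p = 0.173).

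Txnrd1 and Srxn1 serve the thioredoxin system. Txnrd1 (ENSMUSG00000020250, chromosome 10, 82833951 to 82897712, plus strand), the cytosolic thioredoxin reductase, was at 21.0, 25.6 and 24.5 FPKM in Npm1 KO and at 30.9, 29.0 and 27.7 FPKM in WT. Every Npm1 KO library was lower than every WT library, and the exact two-sided permutation test gave p = 0.1, the smallest possible. The means were 23.7 ± 2.39 FPKM in Npm1 KO and 29.2 ± 1.61 FPKM in WT (SD, n = 3 each), which is -0.29 on the log2 scale (SE 0.141, 95% interval from -0.61 to 0.02). The limma adjusted p was 0.175, so it did not pass, and it passed in 0 of the 25 settings, where the difference ran from -0.41 to -0.16. The row overlaps Eid3 on the same strand, at a mean of 0.389 FPKM, and the antisense Gm38560, at 0.718 FPKM.

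Srxn1 (ENSMUSG00000032802, chromosome 2, 152105516 to 152111376, plus strand), which restores overoxidized peroxiredoxins and carries the motif shown above, was the steadiest member. It was at 23.0, 24.97 and 25.6 FPKM in Npm1 KO and at 24.1, 27.2 and 27.2 FPKM in WT. The highest library was 1.18 times the lowest, against 2.46 times for Nfe2l2, and the log2 difference was -0.09 (SE 0.135, 95% interval -0.39 to 0.21, limma adjusted p = 0.671). After removal of the length and GC trend it came to 0.01.

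Nqo1 and Hmox1 are the targets most often used to read out NRF2, and neither had a stable direction. Nqo1 (ENSMUSG00000003849, chromosome 8, 107388225 to 107403206, minus strand), the quinone reductase, was at 15.97, 10.4 and 11.0 FPKM in Npm1 KO and at 8.85, 13.1 and 11.7 FPKM in WT. Npm1 KO replicate 1 was the highest and WT replicate 1 the lowest, with the other 4 libraries mixed. The log2 difference was 0.13 (SE 0.197, limma adjusted p = 0.663), and it was -0.05 without Npm1 KO replicate 1, -0.01 without WT replicate 1 and -0.23 with the length and GC trend removed. Hmox1 (ENSMUSG00000005413, chromosome 8, 75093621 to 75100589, plus strand), heme oxygenase 1, was at 9.98, 14.6 and 9.98 FPKM in Npm1 KO and at 12.1, 7.62 and 13.2 FPKM in WT. Npm1 KO replicate 2 was the highest and WT replicate 2 the lowest, and the log2 difference was 0.08 (SE 0.218, limma adjusted p = 0.827), or -0.14 without WT replicate 2 and -0.09 without Npm1 KO replicate 2.

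Hmox1 is also strongly expressed by macrophages. The summed level of 25 leukocyte markers was 13.6 to 17.7 FPKM in Npm1 KO and 13.4 to 23.9 FPKM in WT, with 4 of the 25 tested, 0 called, and S100a9, Cd3e and Ms4a1 were among those at 0 in all libraries. Of the 4 tested leukocyte markers, Cd14 (log2 0.13, limma adjusted p = 0.587) and Cd68 (log2 0.20, limma adjusted p = 0.445) were above 0. Lyz2 (log2 -0.16, limma adjusted p = 0.758) and C1qa (log2 -0.56, limma adjusted p = 0.225) were below 0. Cd14, the highest of the list, averaged 8.76 FPKM in Npm1 KO and 7.94 FPKM in WT. C1qa averaged 0.766 FPKM in Npm1 KO and 1.72 FPKM in WT, so it passed the filter only through WT. Adgre1, a macrophage marker below the filter, averaged 0.0347 FPKM in Npm1 KO and 0.124 FPKM in WT. The CD45 gene Ptprc gave 4, 3 and 0 fragments in Npm1 KO and 2, 2 and 4 in WT. The sum of 8 pericyte and smooth muscle markers was 31.998 to 38.6 FPKM in Npm1 KO and 51.4 to 67.4 FPKM in WT, most of it Cspg4 and Acta2. Of the 4 tested, 3 were called lower, Cspg4, Notch3 and Mcam, against 8.3% of all genes tested, and Acta2 was not called. Below the filter, Rgs5 averaged 0.431 FPKM in Npm1 KO and 0.426 FPKM in WT, and Des 0.564 and 0.326 FPKM. Myh11 and Kcnj8, both near 0, were lower in Npm1 KO. The sum of 12 fibroblast markers was 1560 to 1734 FPKM in Npm1 KO and 1169 to 1746 FPKM in WT, most of it Col3a1. Of the 11 fibroblast markers tested, 4 were called higher, Dpt (log2 2.19), Pi16 (1.43), Dcn (1.28) and Postn (1.03), and 1 lower, Col1a1 (-1.88). Over all genes tested, 5.91% were called higher and 8.3% lower. The sum of 8 endothelial markers, 0 of them tested, was 1.02 to 2.11 FPKM in Npm1 KO and 2.32 to 5.93 FPKM in WT. The sum of 6 red blood cell markers was 12.8 to 81.2 FPKM in Npm1 KO and 1.46 to 22.5 FPKM in WT, with 3 tested, 0 called and a median log2 difference of 1.95. Which cells the marker transcripts came from was not tested, nor was the part of such cells in the levels of the 10 genes.

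**Figure D2:**
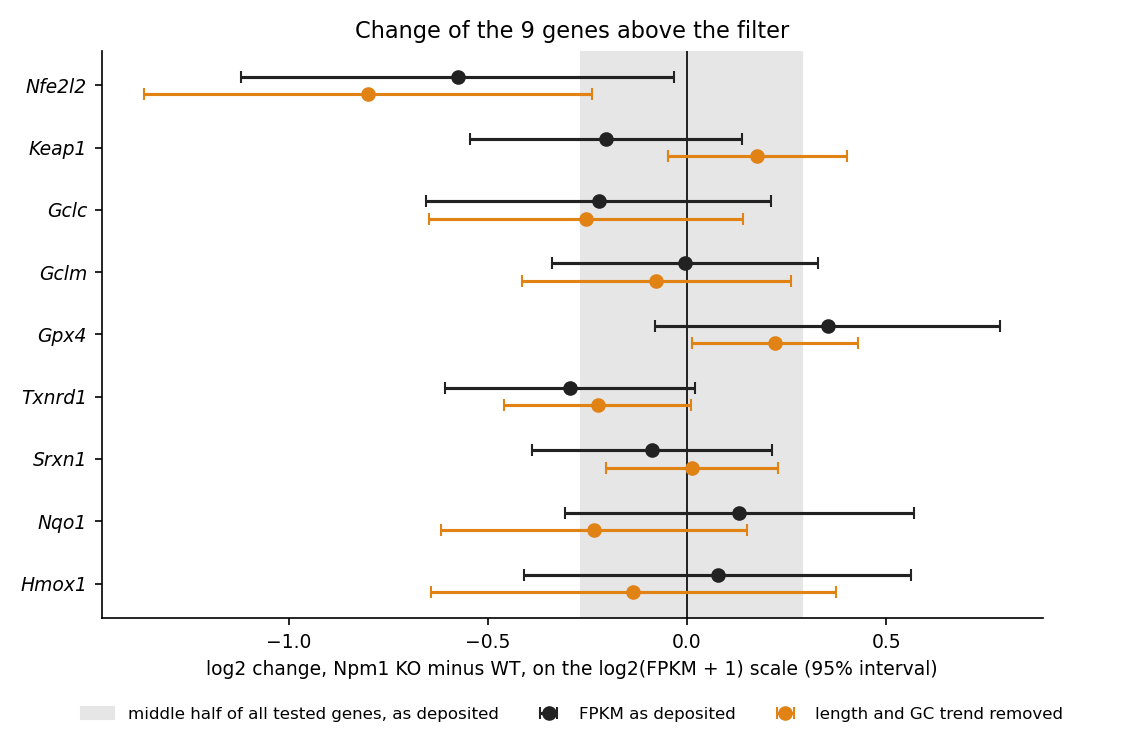
The log2 difference of the 9 genes above the filter, Npm1 KO minus WT on the log2(FPKM + 1) scale, with its 95% interval, as deposited (black) and with the length and GC trend removed (orange). The grey band is the interquartile range of all genes tested as deposited, -0.27 to 0.29. Nfe2l2 (-0.58), Gpx4 (0.35) and Txnrd1 (-0.29) lie outside it as deposited. With the trend removed they are at -0.80, 0.22 and -0.22, and no such range was computed for that version. Values for Keap1, Nqo1, Hmox1 and Srxn1 lie on opposite sides of 0 in the 2 versions.

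The members did not rise and fall together across libraries. Npm1 KO replicate 1 held the highest or the lowest value of 7 of the 10 genes and WT replicate 1 of 6, whereas Npm1 KO replicates 2 and 3 and WT replicate 3 did so for 1 gene each and WT replicate 2 for 4. Nfe2l2, Gclc, Txnrd1 and Slc7a11 were highest in WT replicate 1, where Gpx4 and Nqo1 were lowest. Pearson's r with Nfe2l2 over the 6 libraries, given as a description, was 0.67 for Gclc, 0.46 for Txnrd1, 0.36 for Gclm and 0.27 for Hmox1, and it was -0.12 for Keap1, -0.19 for Srxn1, -0.29 for Nqo1 and -0.45 for Gpx4. Over all tested genes the profiles most like that of Nfe2l2 by the same measure included those of Sde2 (0.994), Plekha3 (0.991), Dyrk3 (0.984) and Nat14 (0.982). These points share the libraries and their length and GC trends.

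**Figure D3:**
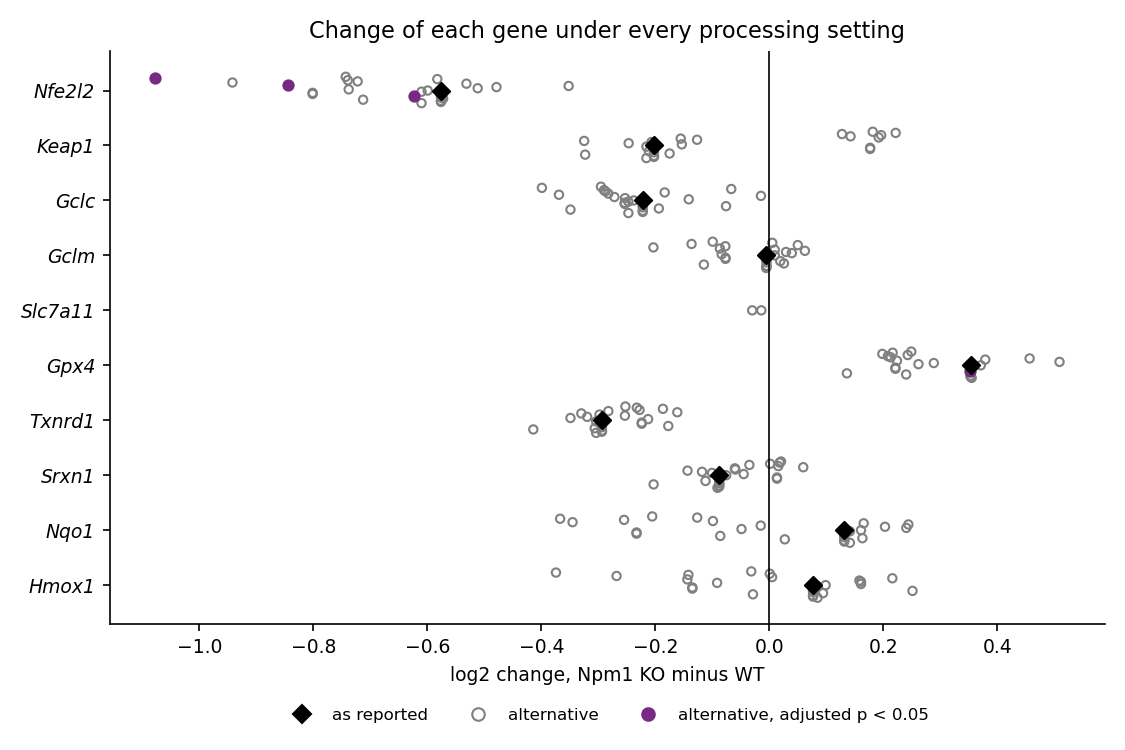
The log2 difference of each gene, Npm1 KO minus WT, as reported (black diamonds) and under each alternative setting (circles, filled where limma's adjusted p is under 0.05). Nfe2l2, Gclc and Txnrd1 stay below 0 and Gpx4 above 0 in all 25 settings, with filled circles for Nfe2l2 and Gpx4 alone, and Slc7a11 has values from the settings with no filter only.

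Around the 10 genes, 183 others of the pathway were followed in 12 lists. Of these, 145 passed the filter and 12 changed, 5 higher and 7 lower in Npm1 KO, or 8.28% against 14.2% of all genes tested. Their median log2 difference was 0.12, against 0.02 over all tested genes, and 0.03 with the length and GC trend removed. How many passed depended on single libraries, as it did over all genes. Without Npm1 KO replicate 1, without Npm1 KO replicate 2 or without WT replicate 3, 0 passed, against 0.78%, 1.85% and 0.062% of all genes tested. Without Npm1 KO replicate 3, 31 passed, or 21.4% against 24.9% of all genes tested. With the length and GC trend removed 3 passed, against 2.71% of all genes in that fit, and 1 of these, Vkorc1l1, was among the 12.

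Among 11 tested NRF2 partners and regulators, 1 fell and 0 rose. Nfe2l1, the sister factor NRF1 that drives proteasome genes, was at 57.4, 55.7 and 64.7 FPKM in Npm1 KO and at 110.9, 87.8 and 119 FPKM in WT. All Npm1 KO libraries were below all WT libraries, with a log2 difference of -0.82 (SE 0.163, limma adjusted p = 0.018), which came to -0.44 after trend removal (limma adjusted p = 0.102). Sqstm1, the p62 receptor that takes KEAP1 to autophagy, was at 273 ± 31.0 FPKM in Npm1 KO and 442 ± 139 FPKM in WT (SD, n = 3 each) and did not pass (limma adjusted p = 0.107). The small MAF genes Mafg and Mafk differed by -0.51 (limma adjusted p = 0.0714) and -0.36 (limma adjusted p = 0.113). The list's median log2 difference was -0.17.

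Other NRF2 target and detoxification genes numbered 18 tested, of which 2 rose and 0 fell, with a median of 0.28 as deposited and 0.07 with the trend removed. Osgin1, an oxidative stress response gene, was low, at 4.20, 3.18 and 4.42 FPKM in Npm1 KO and 1.83, 2.75 and 1.27 FPKM in WT (log2 0.76, SE 0.205, limma adjusted p = 0.0377). After trend removal its difference was larger, 0.85, and did not pass (limma adjusted p = 0.0742). Akr1b10, an aldo-keto reductase, differed by 0.48 (SE 0.138, limma adjusted p = 0.0452), or 0.12 after trend removal. Gstm2, a glutathione transferase of a family with similar copies, was at 35.2 ± 6.61 FPKM in Npm1 KO and 23.0 ± 4.26 FPKM in WT (SD, n = 3 each) and did not pass (limma adjusted p = 0.061). The drug and glutathione conjugate exporter Abcc1 differed by -0.50 (limma adjusted p = 0.0651).

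Of 17 tested genes of glutathione synthesis and use, 1 rose and 0 fell. Gpx8, a peroxidase of the endoplasmic reticulum, was at 77.0, 78.3 and 60.6 FPKM in Npm1 KO and at 45.7, 48.7 and 49.0 FPKM in WT, with no overlap (log2 0.57, SE 0.153, limma adjusted p = 0.0375). Ggct, which cleaves gamma-glutamyl peptides, differed by 0.49 (limma adjusted p = 0.0739). Of 5 superoxide and peroxide removal genes, 1 rose and 0 fell: Cat, catalase, was at 37.0, 35.4 and 30.5 FPKM in Npm1 KO and at 19.9, 23.2 and 25.1 FPKM in WT (log2 0.58, SE 0.15, limma adjusted p = 0.0351). Sod1, the cytosolic superoxide dismutase, differed by 0.38 (limma adjusted p = 0.141). After trend removal the values were 0.22 for Gpx8 (limma adjusted p = 0.191) and 0.46 for Cat (limma adjusted p = 0.0645).

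Of 16 tested thioredoxin and peroxiredoxin genes, 1 fell and 0 rose. Sesn2, a stress-induced sestrin, was at 7.36, 7.82 and 6.94 FPKM in Npm1 KO and at 14.2, 10.3 and 10.9 FPKM in WT (log2 -0.60, SE 0.156, limma adjusted p = 0.0349), a difference of -0.22 after trend removal. Txn1, the thioredoxin that Txnrd1 reduces, was at 562 ± 128 FPKM in Npm1 KO and 359 ± 11.5 FPKM in WT (SD, n = 3 each), a log2 difference of 0.62 that did not pass (limma adjusted p = 0.0713). Of 10 NADPH supply genes, 0 passed in limma, and Me1, malic enzyme, had the smallest p (log2 -0.32, limma adjusted p = 0.139). With the trend removed Me1 passed at -0.45 (limma adjusted p = 0.0494), which was the 1 setting of the 25 in which it did.

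Of 14 tested genes of ferroptosis defence beside Gpx4, 1 rose and 1 fell. Vkorc1l1, a reductase that keeps vitamin K in its radical-trapping form, was at 3.79, 5.06 and 5.33 FPKM in Npm1 KO and at 8.48, 8.17 and 7.07 FPKM in WT. Every Npm1 KO library was lower than every WT library. Vkorc1l1 passed as deposited (log2 -0.64, SE 0.16, limma adjusted p = 0.0309) and after trend removal (-0.69, limma adjusted p = 0.0436). Over the 25 settings it passed in 10. It did not pass after rescaling to TPM (limma adjusted p = 0.0569) or with the replicate number as a block (limma adjusted p = 0.0667). Chmp5, a subunit of the membrane repair machinery, rose by 0.65 (SE 0.139, limma adjusted p = 0.0209), or 0.21 after trend removal. Gch1, the first enzyme of tetrahydrobiopterin synthesis, differed by -0.53 (limma adjusted p = 0.0848) and passed the filter only through WT, where it averaged 1.40 FPKM against 0.640 FPKM in Npm1 KO. Aifm2, the ubiquinone reductase FSP1, was at 8.79 FPKM in Npm1 KO and 8.29 FPKM in WT on average (limma adjusted p = 0.726).

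Of 13 tested ferroptosis promotion genes, 2 fell and 0 rose. Slc39a14, a zinc and iron importer, was at 5.60, 5.75 and 5.72 FPKM in Npm1 KO and at 10.1, 8.87 and 10.8 FPKM in WT (log2 -0.70, SE 0.139, limma adjusted p = 0.0174). Por, the cytochrome P450 reductase, was at 21.2 ± 0.690 FPKM in Npm1 KO and 32.9 ± 6.42 FPKM in WT (SD, n = 3 each), a log2 difference of -0.60 (limma adjusted p = 0.0377). Neither passed with the trend removed, at -0.37 and -0.41. Acsl4, which loads polyunsaturated fatty acids into membranes, was at 6.50 FPKM in Npm1 KO and 5.89 FPKM in WT on average (limma adjusted p = 0.7).

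Of 9 iron storage and transport genes, 0 passed as deposited, and Slc11a2, the divalent metal transporter, was nearest (log2 -0.52, limma adjusted p = 0.0532). Pcbp2, an iron chaperone, differed by -0.37 (limma adjusted p = 0.0948) and passed with the trend removed (-0.58, limma adjusted p = 0.0446). Over the 25 settings Pcbp2 passed in 3. Fth1, ferritin heavy chain, was at 839 ± 105 FPKM in Npm1 KO and 1030 ± 156 FPKM in WT (SD, n = 3 each, limma adjusted p = 0.344). Of 13 heme synthesis and breakdown genes, 1 fell and 0 rose: Alas1, which starts heme synthesis, was at 3.72, 3.21 and 3.65 FPKM in Npm1 KO and at 7.61, 5.41 and 7.90 FPKM in WT (log2 -0.80, SE 0.166, limma adjusted p = 0.0196). After trend removal the value was -0.63 (limma adjusted p = 0.0673).

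Of 11 selenoprotein synthesis genes, which GPX4 and TXNRD1 need for their selenocysteine, 0 passed in limma, and the smallest p was that of Lrp8, a selenoprotein P receptor (log2 -0.34, limma adjusted p = 0.268). Of 13 ATF4 and amino acid stress genes, 2 fell and 0 rose, Sesn2 again and Slc7a5. Slc7a5, a neutral amino acid carrier that also pairs with Slc3a2, was at 59.2, 64.0 and 56.3 FPKM in Npm1 KO and at 94.1, 107.6 and 101.5 FPKM in WT (log2 -0.75, SE 0.143, limma adjusted p = 0.0167). After trend removal it differed by -0.45 (limma adjusted p = 0.0554). Atf4 itself, the factor whose motif stands in the Slc7a11 window, was at 319 ± 47.5 FPKM in Npm1 KO and 261 ± 22.7 FPKM in WT (SD, n = 3 each, limma adjusted p = 0.298).

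**Figure D4:**
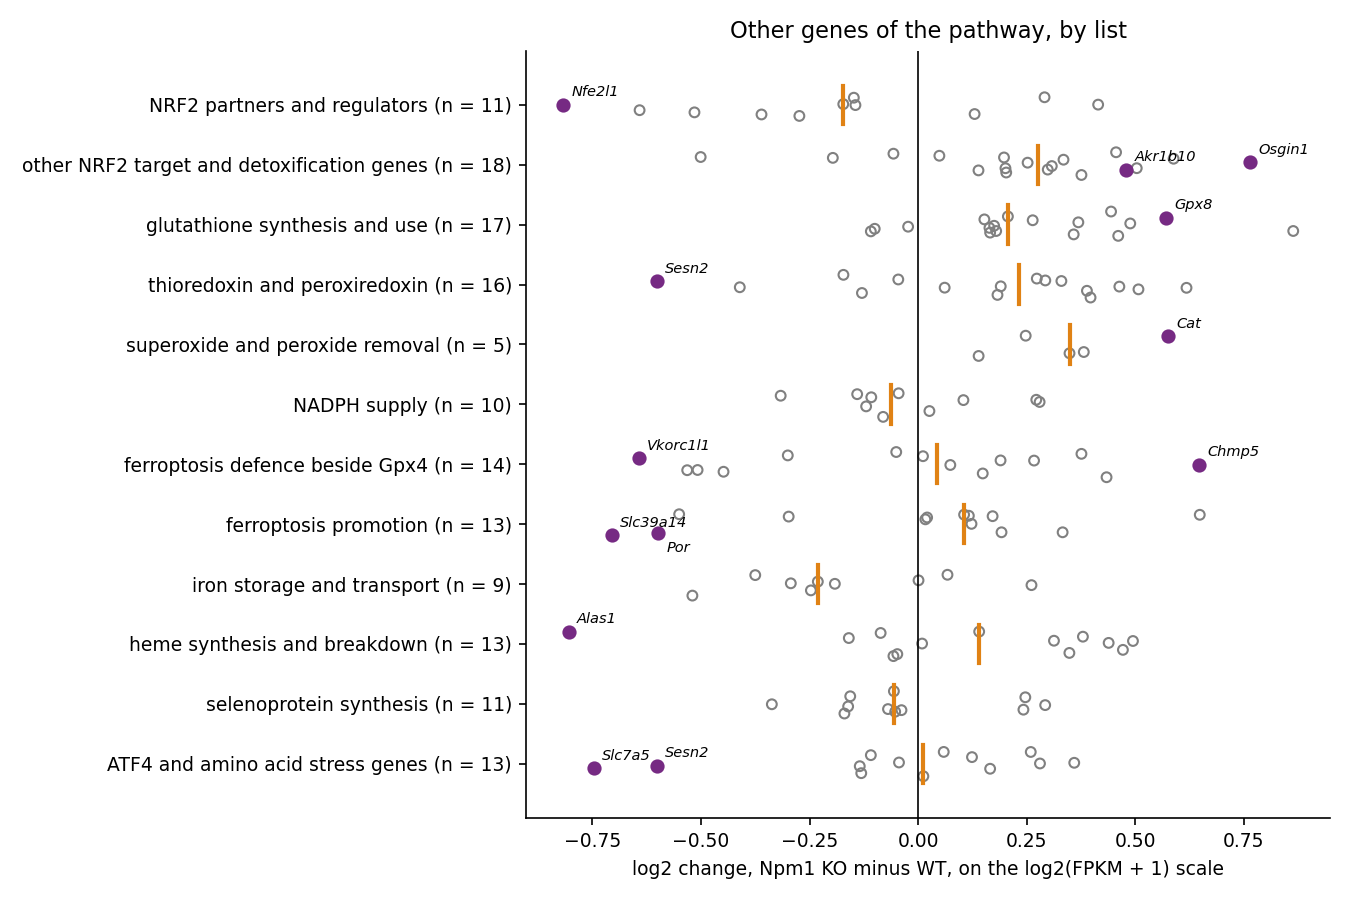
The log2 difference, Npm1 KO minus WT on the log2(FPKM + 1) scale, of each tested gene of the 12 lists, with filled named points for those that passed limma's adjusted p of 0.05 and an orange bar for the list's median. The medians run from -0.23 (iron storage and transport) to 0.35 (superoxide and peroxide removal), and each list holds 0 to 2 genes that passed.

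**Figure D5:**
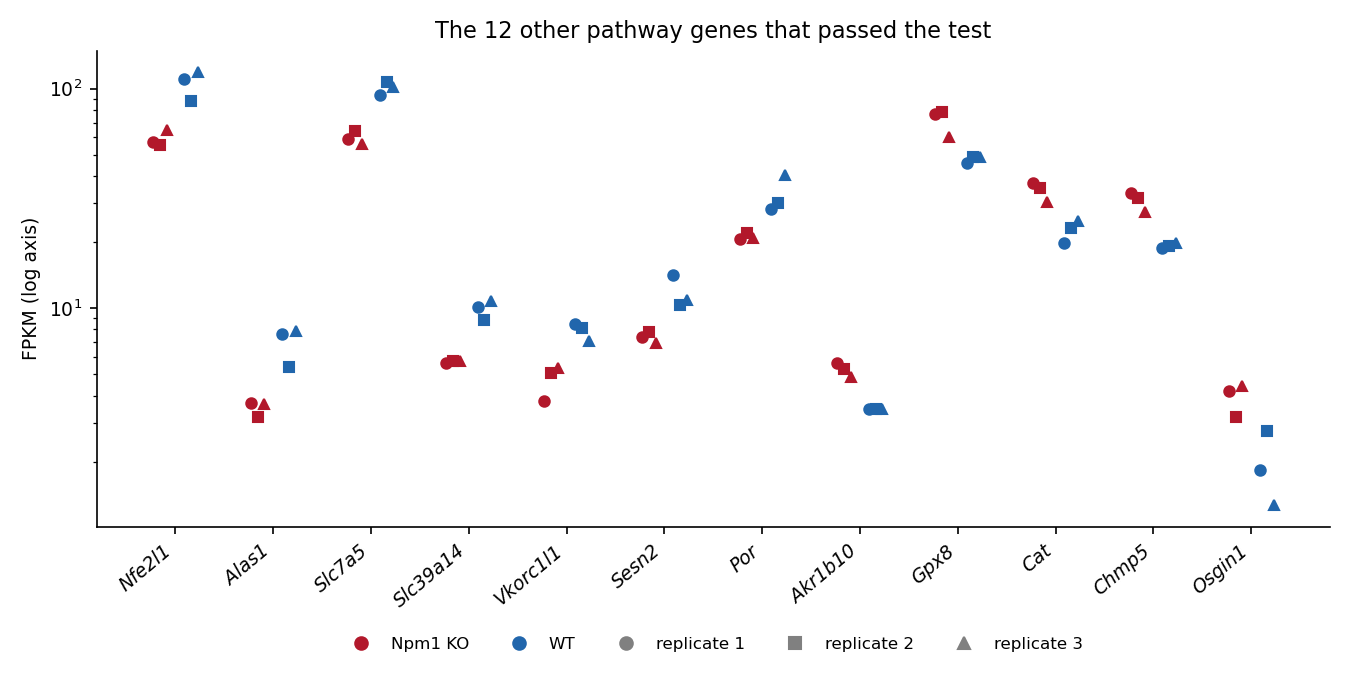
FPKM, on a log axis, of the 12 other pathway genes that passed, in the 3 Npm1 KO (red, left) and 3 WT (blue, right) libraries, with symbols for the replicate number. The 7 genes on the left, Nfe2l1 to Por, are lower in Npm1 KO and the 5 on the right, Akr1b10 to Osgin1, higher. No gene shows overlap of the groups, but the 12 were picked by limma on these same libraries, so this adds no support. The groups did not overlap for 35.6% of all genes tested, and for 15 higher and 18 lower of the 145 tested pathway genes.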

How the data were processed

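The authors deposited 1 table of FPKM with 1 column per library. Per the submitters' processing notes, which give no roles, DESeq2 1.20.0, CASAVA 1.8, featureCounts 1.5.0-p3 and the aligner HISAT2 2.0.5 were used on build GRCm38 (mm10). Fragment numbers were recovered because, once multiplied by gene length, 100% of a library's values were whole steps (tolerance 0.001 of a fragment). Poisson intervals cover counting error only.

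Log2(FPKM + 1) was tested with limma 3.58.1 in R 4.3.3 (group only, mean-variance trend, two-sided, Benjamini-Hochberg over the 11287 genes averaging 1 FPKM or more). In the correction, each library's smooth trend in transcript length and GC content (longest GENCODE vM21 transcript) was subtracted (mgcv 1.9.3). The code was tested on simulated data. The members and lists were chosen with earlier results of these data known. Named are all members, up to 4 genes per list with the smallest p, Npm1 and the profiles most like Nfe2l2, of which 1 is not reported here. Slc3a2, Aifm2 and Acsl4 were named after their values were seen.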

Additional observations from a re-analysis of the deposited data

How the results depend on the processing

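Members passing numbered 0 higher and 0 lower, and 1 and 1 with array weights. Without WT replicate 2 Nfe2l2 passed, as it did with the trend also removed (-1.08), and leaving out any other library gave 0, so the range was 0 to 1 lower and 0 higher. Other pathway genes passing numbered 12 as reported (8.28%, against 14.2% of all genes tested). The count was 19 after quantile normalization (13.1% against 16%) and 60 with array weights (41.4% against 48.3%). With the replicate block 4 passed (2.76% against 7.28%), and with the length and GC correction 3 (2.07% against 2.71%). It was 0 with both (against 0.0799%), 0 with no filter (against 0%) and 0 with no filter and a pseudocount of 0.1 (against 0.00411%). Other pathway genes passing ranged from 0 to 31 with a library left out (at most 21.4%, against 24.9% in that fit). When the trend was removed as well they ranged from 0 to 5 (at most 3.45%, against 3.8%). Over all genes, 1604 as reported, the counts were 0 with no filter (4543 of 24310 at an unadjusted p under 0.05), 961 after rescaling to TPM, 5454 with array weights, 822 with the replicate block, 305 with the correction, 9 with both, 1 with no filter and a pseudocount of 0.1, 7 to 2805 with a library left out, and, with the trend also removed, 6, 3 and 298 without Npm1 KO replicates 1, 2 and 3 and 36, 428 and 5 without WT replicates 1, 2 and 3. Of the calls after TPM rescaling 26.1% were higher in Npm1 KO (41.6% before), where the median over genes was -0.08 (0.02 before). The cause was not tested for any of these.

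The replicate number was tried as a block. Deviations of same-numbered libraries across genes had r = -0.185, 0.268 and -0.368, and those of differently numbered ones ran from -0.395 to 0.421. These deviations hold the length and GC trends, so they cannot show whether libraries were paired. Under the block Nfe2l2 was at -0.58 (limma adjusted p = 0.0876). limma-voom without TMM scaling and the combination of no filter with a pseudocount of 0.1 were added after seeing the data. edgeR, DESeq2 and TMM scaling were not run on these FPKM values, and limma-voom is the one fit here on recovered fragments. For Slc7a11 the counting error was 12.3% at the lowest value, 66 fragments, below the spread of 36.4% (CV) over the 6 libraries.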
